A study of Sus scrofa with 35 samples.

Results

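Glucocorticoids, of which cortisol is the main form in the pig, act in muscle through the glucocorticoid receptor, and the genes described here are that receptor and a set of genes known to respond to it. The genes were *NR3C1*, *HSD11B1*, *FKBP5*, *TSC22D3*, *KLF9*, *KLF15*, *DUSP1*, *MT1A*, *MT2A* and *GLUL*, and their members on the array were the non-control probes whose gene name in the scanner files was 1 of these 10 symbols. The rule found 41 of 60305 probes, for 8 of the 10 genes: 4 for *NR3C1*, 7 for *HSD11B1*, 5 for *FKBP5*, 11 for *KLF9*, 2 for *KLF15*, 2 for *DUSP1*, 3 for *MT1A* and 7 for *GLUL*. No probe carried the name *TSC22D3* or *MT2A*, so these genes have no member value.

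The tissue was longissimus dorsi, a back muscle, from growing castrated male pigs, with 1 array per pig. The breeds were Creole, a local Caribbean pig, Large White, a lean commercial breed, and their F1 cross. The thermoneutral (TN) pigs were kept at 24 °C. The heat stress (HS) pigs were at 30 °C by the sample labels but at 32 °C for 5 days by the growth protocol. The study methods also give 32 °C, with slaughter after 4 or 5 days of exposure, so that only the labels differ in temperature. Each of the 6 groups by breed and temperature had 6 arrays except F1 HS with 5, so that 18 arrays were TN and 17 HS, and the labels give no age. Per the study methods each breed came from 3 blocks of 4 littermates, feed was offered freely and intake was not held equal, and the TN pigs were killed first, ahead of the temperature change, while the HS pigs came from other pens and were killed later. Heat, feed intake, slaughter day, age at slaughter and pen therefore cannot be told apart, and littermates were treated as independent animals because the labels give no litter.

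Cortisone, the inactive form, is turned into cortisol inside tissues by the enzyme that *HSD11B1* encodes. Cortisol binds the receptor encoded by *NR3C1*, which chaperones hold in the cytoplasm until then, and the receptor moves to the nucleus and raises the transcription of its targets. *FKBP5*, a co-chaperone that lowers the receptor's affinity for hormone, and *TSC22D3*, a mediator of the anti-inflammatory action, are targets that feed back on the response. *KLF9* and *KLF15* encode transcription factors induced by the hormone, the latter known in muscle for amino acid breakdown, and *DUSP1* encodes a phosphatase that switches off MAP kinases. *MT1A* and *MT2A* encode metallothioneins, small metal-binding proteins raised by zinc as well as by glucocorticoids, and *GLUL* encodes glutamine synthetase, through which muscle exports nitrogen as glutamine.

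The probes that carry the results are shown by stretches of 30 bases, read 5′ to 3′ from the scanner files. No genome position is given, since the probes were named and not mapped. For *MT1A* the stretches show how the 3 probes differ, with capitals for the 5 bases of probe O4231 that are not those of the other probes when the stretches are set side by side without gaps.
A_72_P079681: tgaaatatgtgagttgtaataaaagttgtc
A_72_P744498: tgaaatatgtgagttgtaataaaagttgtc
O4231: tgaaatatgtgaAtGAtaataaaagttgCT
For *KLF9* the stretches begin the brightest probe, the probe with the largest temperature difference and the probe with the smallest, and no base is in capitals because these probes share no run of 15 bases.
A_72_P596059: ctatatgtggcttttgtccagcacttagat
A_72_P687044: gttgtattagcagtttataaagagaaccgc
A_72_P070711: tcttgcagtttcctctctcagcgcctcggg
For *HSD11B1* a pair of probes shares a run of 58 bases, here in capitals, so that they are no separate evidence, and the third stretch is from a probe elsewhere in the transcript that passed the breed test.
A_72_P006061: ctATTCTGGGGATCTTCTTGGCCTACTACT
O9336: ATTCTGGGGATCTTCTTGGCCTACTACTAC
A_72_P543418: ttctgcaagcaagtttgctctggacgggtt
Both *KLF15* probes hold the same 60 bases, of which the first 30 are shown, and they are repeat spots of 1 probe.
O5705: gagctagatagagcctccaatcctgattta

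Each array had 58.4% to 75.9% of its probes well above background. Of the 41 member probes, 39 were well above background on all 35 arrays, *KLF9* probe A_72_P070711 on 34 and *MT1A* probe O4231 on 24, and all 41 passed the filter on dim probes. Muscle markers were bright on every array, with a mean log2 intensity over 11 genes between 17.25 and 17.93. In whole muscle, fewer cells of a type and less RNA per cell cannot be told apart. Values below are log2 quantile-normalised intensities, differences are on the same log2 scale, and a level is compared only within a probe. A difference is called when its p from the limma fit, adjusted over all 41517 probes tested (Benjamini-Hochberg), is below 0.05.

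The hot pigs had less *KLF9* mRNA, and *KLF9* was the 1 gene of the 8 whose brightest probe changed with temperature. All 11 *KLF9* probes fell, by 0.19 to 0.73, and the brightest was 0.70 lower in HS (SE 0.12, 95% interval -0.94 to -0.46, adjusted p = 0.000265), which is 1.62-fold. The only other member probe called was O4231 of *MT1A* (-0.77, SE 0.27, adjusted p = 0.0488). It passed the filter on dim probes only through Creole TN and Large White TN, where it was well above background on 5 of 6 arrays each, so it entered this comparison through groups where it is high and its call is given as a description. In all, 12 of the 41 probes were called, all lower in HS, against a background of 8.30% of all probes called lower and 16.0% called either way. Since 11 of the 12 are 1 gene, the count by gene is the more even one: 1 of 8 brightest probes was lower, beside 10.1% of the 8993 gene symbols of the array taken by their brightest probe. That share is near the background and is no result about the members as a group. Over the whole array, 48.2% of the calls were higher in HS, 37.5% after scaling to the 75th percentile of the processed signal and 86.6% after scaling to spike-in RNAs. The median difference of the 41 probes was -0.17, beside -0.02 for all probes tested. Probes of 1 gene share their pigs, so the 41 are not separate observations and this median is no group result. With spike-in scaling the brightest probes of *NR3C1*, *FKBP5* and *KLF15* turned to 0.04, 0.09 and 0.03. Those of *HSD11B1*, *DUSP1* and *GLUL* kept their sign but were small, at -0.0098, -0.013 and -0.028 (adjusted p between 0.919 and 0.976). Those of *KLF9* and *MT1A* were -0.58 (adjusted p = 0.000649) and -0.88 (adjusted p = 0.229), so that only *KLF9* was called.

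**Figure D1:**
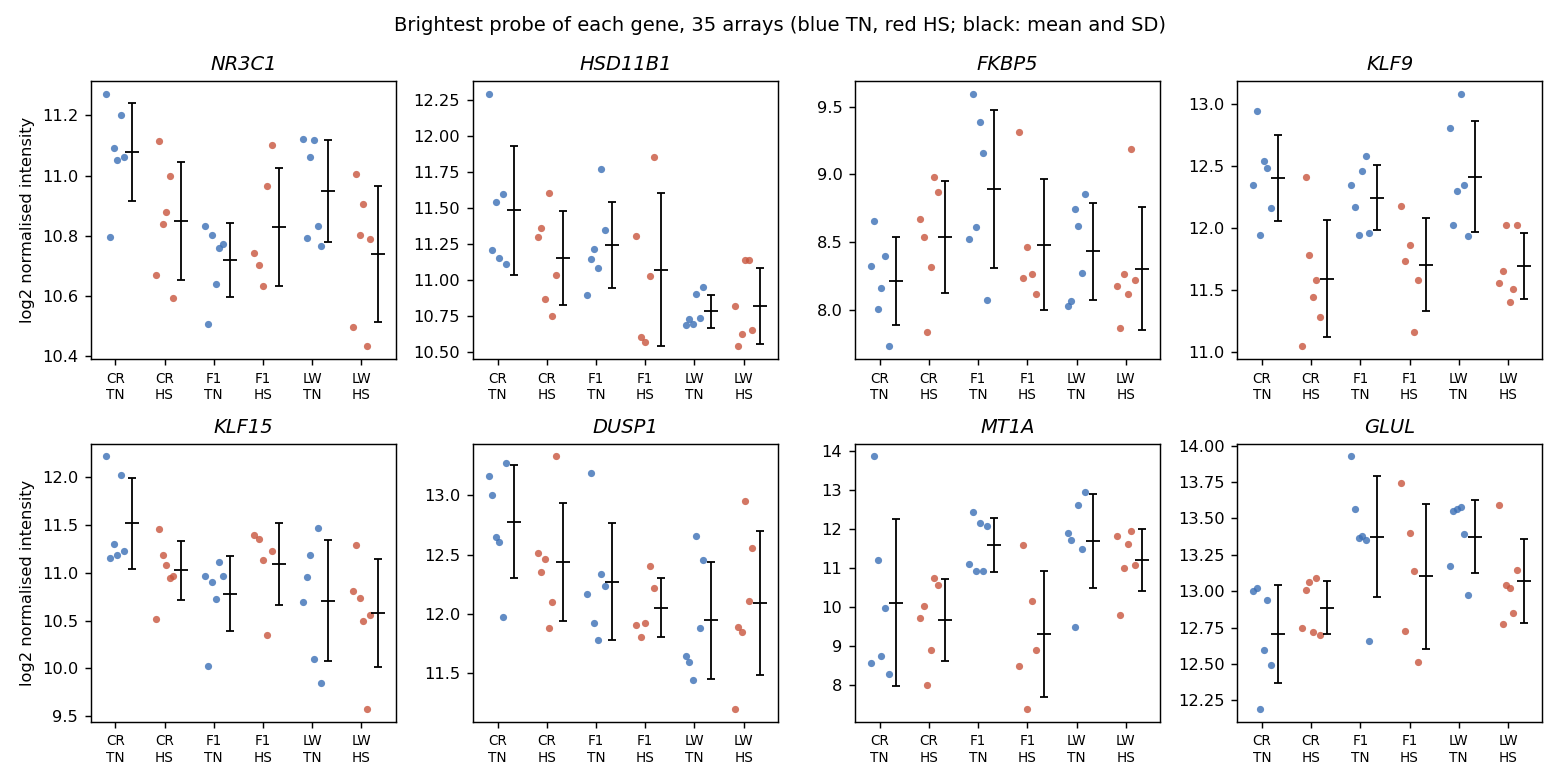
Log2 normalised intensity (y axis, own range per panel) of the brightest probe of each of the 8 genes on the 35 arrays, by group (x axis; CR Creole, LW Large White), with 1 point per pig, blue for TN and red for HS, and the mean and SD in black. In *KLF9* the HS means lie between 11.59 and 11.70 and the TN means between 12.25 and 12.42, whereas in the other genes HS and TN points are mixed.

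*KLF9* showed the same order in each breed. In TN pigs its brightest probe read 11.94, 12.42 and 12.95 in Creole (lowest, median and highest of 6 arrays), 11.95, 12.26 and 12.58 in F1 and 11.93, 12.32 and 13.09 in Large White. In HS pigs it read 11.04, 11.51 and 12.41 in Creole and 11.40, 11.61 and 12.03 in Large White, and the 5 F1 HS arrays read 12.18, 11.73, 11.87, 11.16 and 11.58. The groups overlapped in every breed, but 13 of the 17 HS arrays were below the lowest of all 18 TN arrays, and 16 of 17 were below the TN mean of their breed. In the order of the 6 group means, the gap between the lowest TN group (F1, 12.25) and the highest HS group (F1, 11.70) was the only one above the SD within groups of 0.37.

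Taken breed by breed, the brightest *KLF9* probe was 0.81 lower in HS Creole pigs (SE 0.21, adjusted p = 0.0383), 0.54 lower in F1 (SE 0.22, adjusted p = 0.454) and 0.72 lower in Large White (SE 0.21, adjusted p = 0.1). The breed by temperature interaction did not pass the test (adjusted p = 0.968, unadjusted p = 0.656). In Creole, 9 of the 41 member probes were called, all of *KLF9*, beside 1.91% of all probes. That count rested on single arrays: it was 0 without Creole TN replicate 1 or Creole HS replicate 1, 1 without Creole HS replicate 6, 4 without Creole TN replicate 5 and 5 without Creole HS replicate 3 or 5, and it was also 0 with the array brightness or the leukocyte mean in the fit. Within F1 and within Large White no member probe was called, beside 0.00482% of all probes in each. At an unadjusted p below 0.05 there were 11 member probes in F1, 9 of them *KLF9*, and 10 in Large White, all *KLF9*. These unadjusted counts have no share of all probes beside them and largely repeat 1 gene. Without Large White TN replicate 6 the count of called probes in Large White was 6.

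The 11 *KLF9* probes did not fall by the same amount. The 7 probes that start between bases 2928 and 4284 of their target sequence fell by 0.63 to 0.73, and O14257, with no start given, fell by 0.65. The probes that start at bases 170, 261 and 453 fell by 0.19, 0.47 and 0.33. These 3 were also the dimmest *KLF9* probes, with group means between 5.91 and 6.71 beside 8.42 to 12.42 for the others. The starts 261 and 453 are counted in another target sequence than the rest. The probe at base 170 followed the others least from pig to pig, with r within groups between 0.25 and 0.38, while the median r over all 55 pairs of *KLF9* probes was 0.83. The 3 pairs of neighbours among the probes between bases 4201 and 4284 share runs of 26 to 37 bases and are in part the same measurement. The part of dimness and of position in these differences cannot be told apart.

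**Figure D2:**
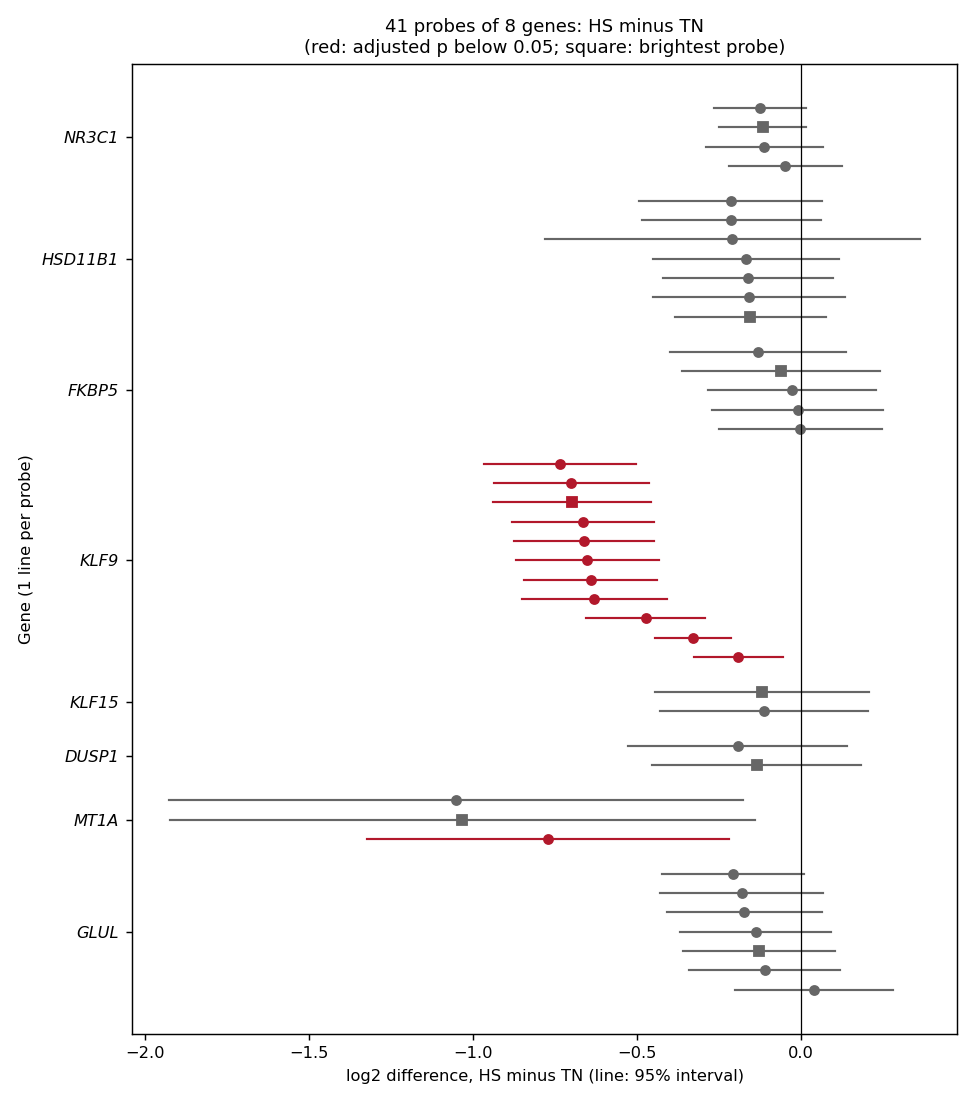
Log2 difference HS minus TN (x axis) of each of the 41 probes, grouped by gene (y axis), from the fit of breed and temperature over 35 arrays, with 95% intervals. All 11 *KLF9* probes and *MT1A* probe O4231 are red (adjusted p below 0.05), squares mark each gene's brightest probe, and 40 of the 41 differences are below 0. Probes of the same gene are not separate observations, so this count is no result about the genes as a group.

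The *KLF9* difference was present on every slide. The arrays lay on 5 slides that each held HS and TN pigs, and HS minus TN for the brightest probe was -0.98, -0.18, -0.84, -0.79 and -0.86 on them, the last with 1 HS and 2 TN arrays. With the slide as a block it was -0.72 (adjusted p = 0.000246). Without any 1 of the 35 arrays it stayed between -0.75 and -0.65, with adjusted p between 0.000115 and 0.000622.

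Some markers of leukocytes, red blood cells and connective tissue moved with heat too. The mean log2 intensity over 13 of the 16 leukocyte markers ranged from 7.81 to 10.79 on TN arrays and from 9.21 to 11.16 on HS arrays, 12 of the 13 were higher in HS and 4 of them, *LYZ*, *CSF1R*, *TYROBP* and *AIF1*, were called. The mean over 5 of 6 red blood cell genes ranged from 7.48 to 8.24 in TN and from 7.24 to 7.85 in HS, with 2 of the 5 called lower, and all 11 connective tissue genes were higher in HS, 4 of them called. Adipocyte genes had none of 7 called, endothelial genes 1 of 8, lower, and skeletal muscle genes 2 of 11, lower. Over the whole array 18.4% of symbols were called with temperature and 10.1% were called lower. The endothelial and skeletal muscle counts of calls are near these shares and are by themselves no result about those cells. Their directions were nearly uniform, with 0 of 11 skeletal muscle genes and 1 of 8 endothelial genes higher in HS. The median differences were -0.08 and -0.20, beside -0.02 for all probes tested. The mean over the muscle markers was 17.70 in TN and 17.56 in HS. With the leukocyte mean in the fit, *KLF9* was 0.58 lower in HS (adjusted p = 0.00636). Markers differed between the breeds too. In Creole, 3 of 8 endothelial, 2 of 11 connective tissue and 1 of 13 leukocyte genes were called lower than in Large White, beside 3.75% of symbols called either way. In these lists 0, 1 and 2 genes were higher in Creole. No adipocyte, skeletal muscle or red blood cell gene was called between these breeds. The part of tissue make-up in the breed differences below was not tested.

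The receptor gene passed no test of temperature or breed. *NR3C1* varied the least among the 8 genes, 1.79-fold between the highest and the lowest of all 35 arrays, and its within-group SD of 0.18 lay at the 28.9th percentile of all probes tested. The brightest probe read 10.80, 11.08 and 11.27 in Creole TN, 10.59, 10.86 and 11.11 in Creole HS, 10.51, 10.77 and 10.83 in F1 TN, 10.77, 10.95 and 11.12 in Large White TN and 10.43, 10.80 and 11.01 in Large White HS (lowest, median and highest), and 10.74, 10.70, 10.63, 10.97 and 11.10 on the F1 HS arrays. All groups overlapped. The temperature difference was -0.12 (95% interval -0.25 to 0.02, adjusted p = 0.231), and the 4 probes lay between -0.12 and -0.05 with none called. This direction turned to 0.04 with spike-in scaling and to 0.02 with the leukocyte mean in the fit. Creole and Large White differed by 0.12 (95% interval -0.04 to 0.28, adjusted p = 0.52).

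*HSD11B1*, the enzyme that regenerates cortisol, was the 1 gene of the 8 with a probe called between Creole and Large White. The brightest probes of *KLF15* (0.63) and *DUSP1* (0.59) differed by more without being called. Each breed came from 3 blocks of 4 littermates that were counted as independent, so the SE and p of breed differences take no account of litter. Its brightest probe was 0.51 higher in Creole than in Large White (SE 0.14, 95% interval 0.24 to 0.79, adjusted p = 0.0256), which is 1.43-fold. All 7 probes were higher in Creole, by 0.48 to 0.97, and 3 of them were called, with adjusted p between 0.0231 and 0.036. The other 4 had adjusted p between 0.0524 and 0.118. These 3 were the only member probes called in this comparison, 3 of 41 beside 3.64% of all probes called (1.73% higher and 1.92% lower in Creole), and by gene 1 of 8 beside 3.75% of symbols. Of the calls over the whole array 47.4% were higher in Creole, 36.3% with median scaling, 26.0% with spike-in scaling and 56.3% at the 75th percentile.

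In Creole TN pigs the brightest *HSD11B1* probe read 11.11, 11.38 and 12.29 (lowest, median and highest), and in Large White TN pigs 10.69, 10.73 and 10.95. Every Creole TN array was therefore above every Large White TN array, which 0.500% of the 8993 symbols showed in this direction. The HS groups overlapped, with 10.75, 11.17 and 11.60 in Creole and 10.54, 10.74 and 11.14 in Large White. In TN pigs alone Creole was 0.70 higher (adjusted p = 0.0785) and in HS pigs alone 0.33 higher (adjusted p = 0.804), and the interaction did not pass the test (adjusted p = 0.963, unadjusted p = 0.414).

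F1 pigs lay between their parent breeds in *HSD11B1*. The brightest probe read 10.90, 11.18 and 11.77 in F1 TN and 11.30, 10.61, 10.57, 11.03 and 11.85 on the F1 HS arrays, and F1 was 0.36 higher than Large White (SE 0.14, adjusted p = 0.322) and 0.16 lower than Creole (SE 0.14, adjusted p = 0.868). The fitted F1 mean lay between the parents in all 7 probes, which share their pigs and are not separate observations. In the order of the 6 group means no gap between neighbours exceeded the SD within groups of 0.35. Creole stayed above Large White in all 14 other settings run, by 0.33 to 0.70, but the brightest probe was no longer called with median scaling (0.46, adjusted p = 0.0821) or spike-in scaling (0.44, adjusted p = 0.242). With heat it differed by -0.15 (95% interval -0.38 to 0.08, adjusted p = 0.376).

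**Figure D3:**
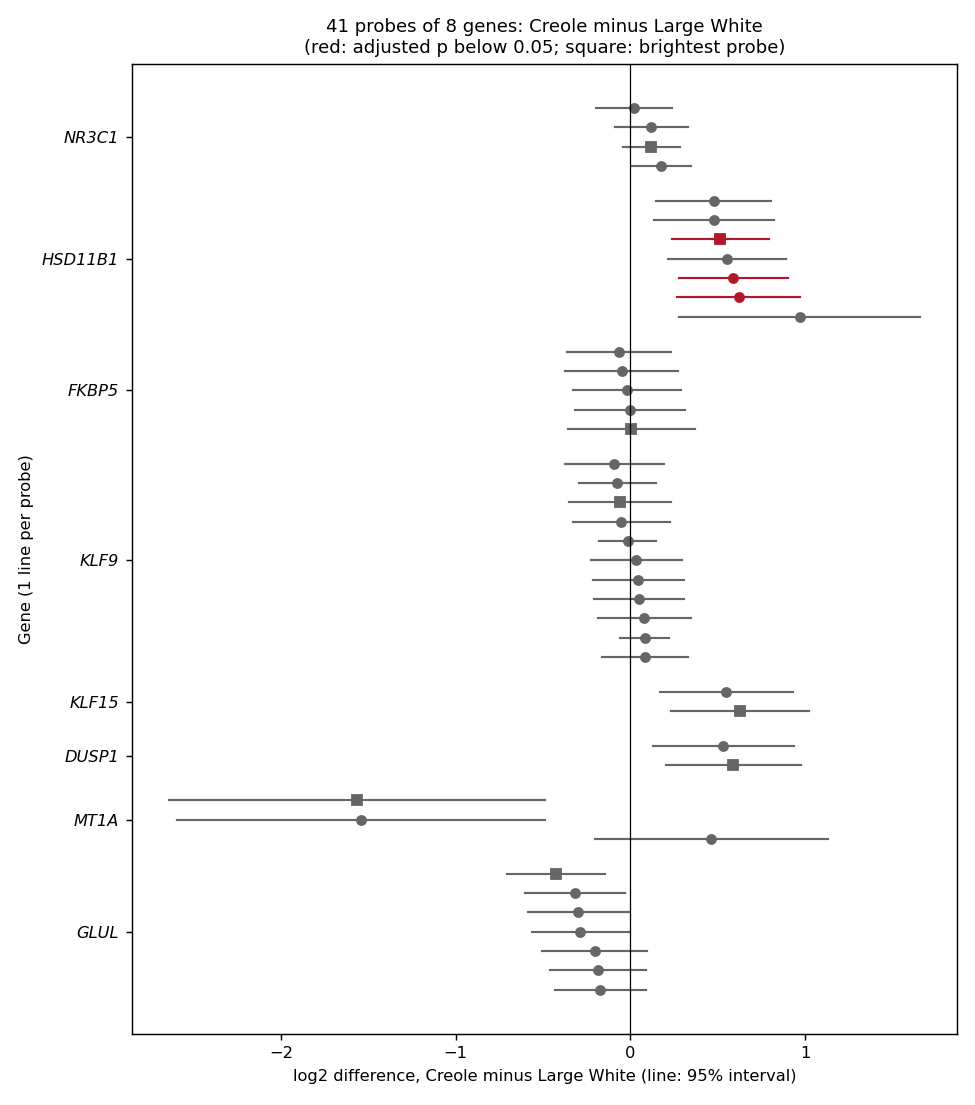
Log2 difference Creole minus Large White (x axis) of each of the 41 probes, grouped by gene (y axis), with 95% intervals from the fit of breed and temperature. The 3 red probes (adjusted p below 0.05) are *HSD11B1*, whose 7 probes lie between 0.48 and 0.97, while *FKBP5* and *KLF9* lie around 0 and the *MT1A* probes point both ways.

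*FKBP5*, the best known of the receptor's feedback targets, did not pass any test. Its brightest probe read 7.73, 8.24 and 8.65 in Creole TN, 7.84, 8.61 and 8.98 in Creole HS and 8.07, 8.88 and 9.60 in F1 TN. It read 8.03, 8.45 and 8.86 in Large White TN, 7.87, 8.20 and 9.19 in Large White HS and 9.32, 8.24, 8.47, 8.26 and 8.12 on the F1 HS arrays. All 6 groups overlapped. HS minus TN was -0.06 (95% interval -0.36 to 0.24, adjusted p = 0.825), a direction that turned to 0.0084 with median scaling and 0.09 with spike-in scaling. The within-breed differences were 0.32 in Creole, -0.41 in F1 and -0.13 in Large White, and the interaction of this probe had an unadjusted p of 0.128. Another *FKBP5* probe had the second smallest unadjusted interaction p of all 41, 0.0374, after 0.0273 for a *GLUL* probe, and neither passed the adjustment (0.963 for both).

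For *TSC22D3* the files hold a pair of probes whose description names the gene but whose gene name is a transcript identifier, so they are outside the rule and were chosen after their values were seen. Probe A_72_P007726 read 11.00, 11.37 and 11.67 in Creole TN and 10.33, 10.93 and 11.39 in Creole HS, 10.71, 11.12 and 12.02 in Large White TN and 10.25, 10.82 and 10.98 in Large White HS, and 10.95, 11.14 and 11.35 in F1 TN and 11.39, 10.83, 11.29, 10.81 and 10.91 on the F1 HS arrays. The groups overlapped, with 14 of 17 HS arrays below the TN mean of their breed. The temperature difference was -0.37 (SE 0.10, adjusted p = 0.014), that of the other probe was -0.11 (adjusted p = 0.179), and the r between them within groups was 0.49. With the leukocyte mean in the fit the difference was -0.18 (adjusted p = 0.269), and with the array brightness -0.17 (adjusted p = 0.237), so the call was lost with either.

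*KLF15*, known in muscle for switching on amino acid breakdown, gave no call for heat or breed. The same 60 bases were printed at both of its spots, and the SD of the difference between the spots was 0.09, beside a within-group SD between pigs of 0.48. The spots share an array and its labelled RNA, so the smaller value leaves out the error of extraction, labelling and hybridisation. The probe O5705 read 11.16, 11.26 and 12.22 in Creole TN, 10.51, 11.02 and 11.46 in Creole HS, 10.02, 10.93 and 11.11 in F1 TN, 9.85, 10.82 and 11.47 in Large White TN and 9.57, 10.65 and 11.29 in Large White HS, and 11.40, 11.35, 11.13, 10.35 and 11.22 on the F1 HS arrays. Every Creole TN array was above every F1 TN array, which 0.423% of the symbols showed in this direction, and the other groups overlapped. Its HS minus TN was -0.12 (95% interval -0.44 to 0.21, adjusted p = 0.663), which turned to 0.03 with spike-in scaling, 0.14 with the array brightness and 0.26 with the leukocyte mean in the fit. Creole was 0.63 above Large White on O5705 (95% interval 0.23 to 1.02, adjusted p = 0.0639) and 0.55 on its repeat spot (adjusted p = 0.102). That breed difference was called without Creole HS replicate 1, Large White HS replicate 2, Large White TN replicate 3 or 5, or F1 TN replicate 2 (adjusted p between 0.034 and 0.0467).

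*DUSP1*, the MAP kinase phosphatase, had a similar breed difference that did not pass. Its brightest probe read 11.98, 12.82 and 13.27 in Creole TN, 11.88, 12.41 and 13.33 in Creole HS, 11.78, 12.20 and 13.18 in F1 TN, 11.44, 11.76 and 12.66 in Large White TN and 11.20, 12.00 and 12.95 in Large White HS, and 11.91, 11.81, 11.93, 12.40 and 12.22 on the F1 HS arrays. All groups overlapped. Creole was 0.59 above Large White (95% interval 0.20 to 0.97, adjusted p = 0.0774). It was called without Large White HS replicate 4 (adjusted p = 0.028) and without Creole TN replicate 5 or Creole HS replicate 4 (adjusted p = 0.0489 for each). HS minus TN was -0.13 (95% interval -0.45 to 0.19, adjusted p = 0.603), and it changed sign between slides, from -0.64, -0.50 and -0.44 on 3 of them to 0.70 and 1.16 on the other 2.

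*GLUL*, glutamine synthetase, had lower values in Creole than in Large White, without passing the test. The brightest of its 7 probes read 12.19, 12.77 and 13.02 in Creole TN, 12.70, 12.88 and 13.09 in Creole HS, 12.65, 13.37 and 13.93 in F1 TN, 12.98, 13.47 and 13.58 in Large White TN and 12.78, 13.03 and 13.59 in Large White HS, and 13.74, 12.73, 13.40, 13.14 and 12.51 on the F1 HS arrays. The Creole TN and Large White TN groups overlapped only between 12.98 and 13.02. Creole minus Large White was -0.43 (95% interval -0.70 to -0.15, adjusted p = 0.0789) and all 7 probes were below 0, from -0.43 to -0.17. It was called with median scaling (-0.49, adjusted p = 0.0408) and with array weights (-0.48, adjusted p = 0.0385). F1 was 0.45 above Creole (SE 0.14, adjusted p = 0.183) and 0.02 above Large White (adjusted p = 0.974), and HS minus TN was -0.13 (95% interval -0.36 to 0.10, adjusted p = 0.481).

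Metallothionein was the most variable of these transcripts. The brightest *MT1A* probe, A_72_P079681, spanned 88.3-fold between the highest and the lowest array, and the within-group SDs of the 3 *MT1A* probes lay at the 98.6th to 99.8th percentile of all probes tested. It read 8.29, 9.36 and 13.86 in Creole TN, 8.02, 9.88 and 10.75 in Creole HS and 10.93, 11.58 and 12.43 in F1 TN. The F1 HS arrays read 8.49, 11.60, 7.39, 10.16 and 8.91, and the Large White arrays 9.50, 11.81 and 12.94 in TN and 9.80, 11.35 and 11.96 in HS. The groups overlapped in each breed, and the highest of all values was Creole TN replicate 2. HS minus TN was -1.03 (SE 0.44, adjusted p = 0.103) and Creole minus Large White -1.56 (SE 0.53, adjusted p = 0.0982). Neither was called, although both intervals lay below 0 before adjustment (-1.92 to -0.14 and -2.64 to -0.49). With the leukocyte mean in the fit the temperature difference was -1.86 (adjusted p = 0.00538), and with the array brightness -1.55 (adjusted p = 0.0361). The breed difference was called without Creole TN replicate 2 (-1.89, adjusted p = 0.02) or Large White TN replicate 3 (-1.80, adjusted p = 0.041) and with array weights (-1.67, adjusted p = 0.0427).

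The 3 probes named *MT1A* did not measure the same pattern. A_72_P079681 and A_72_P744498, which share 30 bases, had r = 0.99 within groups, while O4231 had r = 0.28 and 0.31 with them. Probe O4231 read 5.45, 6.95 and 8.93 in Creole TN and between 5.37 and 6.34 in Creole HS, and its 3 highest arrays were Creole TN replicates 1, 2 and 5. The other probes were high on 1 of these 3 arrays, replicate 2 (13.86 on A_72_P079681), and read 8.57 and 9.97 on replicates 1 and 5. The Creole minus Large White difference of O4231 was 0.46 (adjusted p = 0.558), opposite in sign to the other probes, and turned to -0.02 in HS pigs alone.

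The temperature call of O4231 was close to the threshold. Its difference stayed between -0.86 and -0.63 whichever array was left out, but the call was lost without any of 23 of the 35 (adjusted p up to 0.0838, the highest without Creole TN replicate 1). It was lost in 7 of the 11 other settings that could test it, with -0.92 for the array brightness and -0.87 for the leukocyte mean in the fit, and in HS it was well above background on 10 of the 17 arrays. Metallothionein genes are close copies of each other, and which copy a probe reads is uncertain. Probes described as *MT1G* and *MT1M*, which are outside the rule and were chosen after their values were seen, had r = 0.96 and 0.73 with A_72_P079681 within groups and share runs of 4 and 5 bases with it. Their temperature differences were -0.92 (adjusted p = 0.0746) and -0.24 (adjusted p = 0.216).

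**Figure D4:**
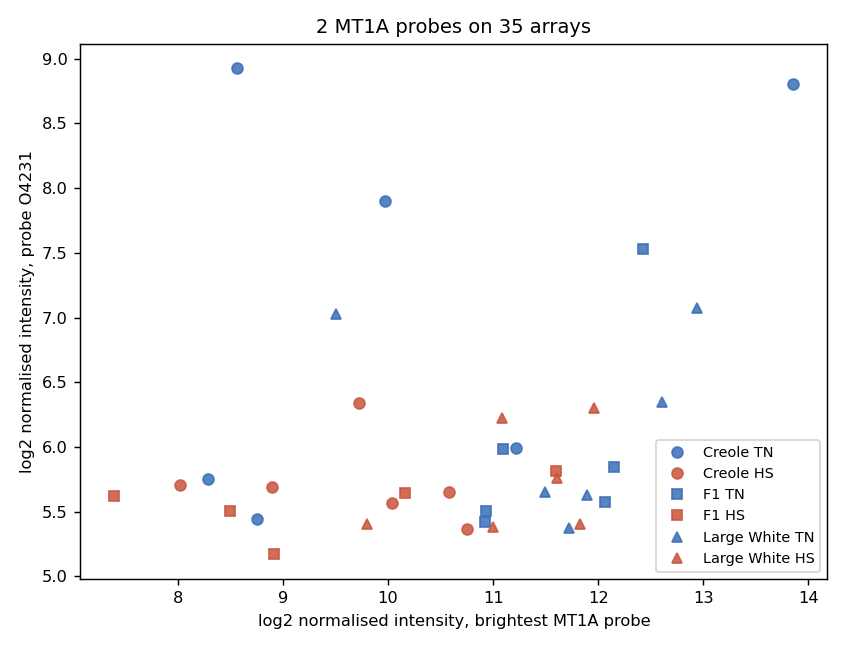
Log2 normalised intensity of *MT1A* probe O4231 (y axis) against the brightest *MT1A* probe A_72_P079681 (x axis) on 35 arrays, with colour for temperature and marker shape for breed. The arrays above 7 on O4231 are all TN, and those of Creole TN lie both at low (8.57) and at the highest (13.86) values of the other probe.

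Breed contrasts with F1 gave no call among the members. In F1 minus Large White and in F1 minus Creole 0 of 41 probes were called, beside 0.525% and 0.477% of all probes, and 3 and 8 of the 41 had an unadjusted p below 0.05. The fitted F1 mean lay between the parent breeds for 21 of the 41 probes, including all 7 of *HSD11B1* and both of *KLF15* and of *DUSP1*, and for none of the 5 of *FKBP5*, where F1 was above both parents. No member probe showed a breed by temperature interaction (0 of 41 called, beside 0 of all 41517 probes, with 2 of 41 at an unadjusted p below 0.05). The counts by unadjusted p and the count of probes with F1 between the parents have no share of all probes beside them. They are no result about the members, and probes of 1 gene are not separate observations.

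No pair of the 8 genes passed a test of correlation from pig to pig. Over the 28 pairs of their brightest probes, correlated over 35 arrays after taking each group's mean out, 0 pairs passed the adjustment over pairs and 6 had an unadjusted permutation p below 0.05. The strongest was *KLF15* with *DUSP1* (Pearson's r = -0.47, permutation p = 0.0111, adjusted p = 0.134, Spearman's rho = -0.48, permutation p = 0.009, adjusted p = 0.105), with r = -0.48 without the 2 arrays farthest from the median of *KLF15*. *KLF9* with *GLUL* had r = 0.42 (permutation p = 0.0109, adjusted p = 0.134) and rho = 0.45 (permutation p = 0.0112, adjusted p = 0.105), and r = 0.43 without the 2 farthest arrays. *NR3C1* with *FKBP5* had r = -0.42 (permutation p = 0.0191, adjusted p = 0.134) and rho = -0.37 (permutation p = 0.0374, adjusted p = 0.262), which did not pass. Its r was -0.29 without the 2 farthest arrays and -0.32 with either 75th percentile scaling or the leukocyte mean taken out. *KLF15* and *MT1A* had r = -0.43 (permutation p = 0.0166, adjusted p = 0.134) and rho = -0.49 (permutation p = 0.0069, adjusted p = 0.105), with r = -0.39 without the 2 farthest arrays and 0.0033 with the leukocyte mean taken out.

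**Figure D5:**
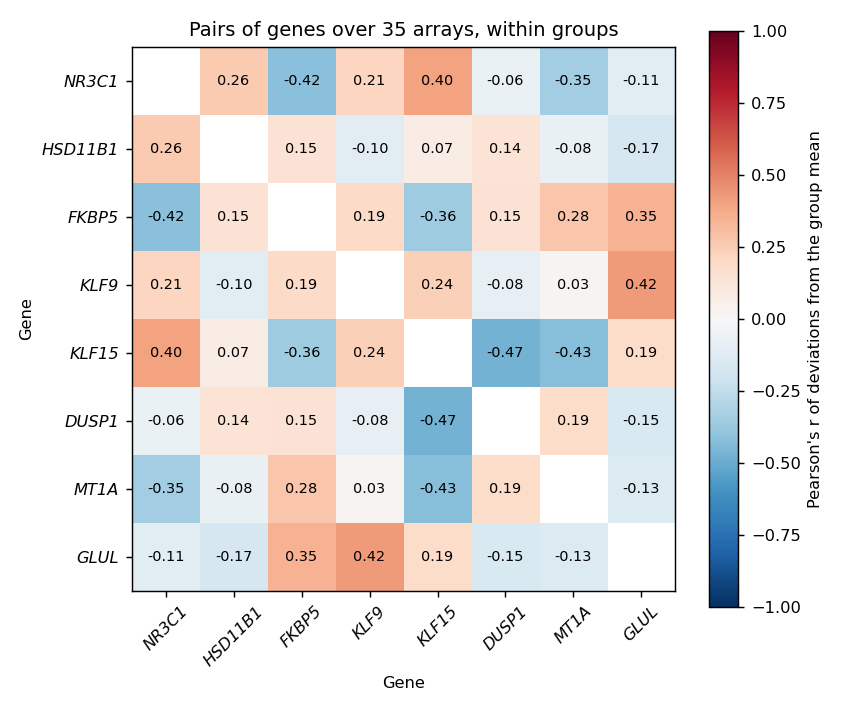
Pearson's r (colour and printed value) between the brightest probes of the 8 genes over 35 arrays after taking out the 6 group means, for the 28 pairs (each shown on both sides of the diagonal, which is left blank). The strongest value is -0.47 for *KLF15* with *DUSP1*, and none of the 28 pairs passed the adjusted permutation test.

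Among 8983 gene symbols, those most like each gene in their variation within groups were found by Pearson's r over the 35 arrays, as a description only. *KLF9* was most like *COX6C* (0.72), *LARP6* (0.71) and *YDJC* (0.68), *KLF15* most like *CHCHD10* (0.86), *NDUFA3* (0.82) and *DCAF8* (0.81), and *NR3C1* most like *ADIPOR1* (0.82), *POLDIP2* (0.82) and *PPP3CB* (0.81). For *DUSP1* they were *FOS* (0.72), *OTUD1* (0.71) and *PPP1R10* (0.70), and for *MT1A* *TIMP1* (0.78), *METRNL* (0.78) and *CCL3L1* (0.77). The values were lower for *HSD11B1*, with *ADAT2* (0.67) and *TMEM107* (0.66), for *FKBP5*, with *ETF1*, *WARS* and *FAM155B* (0.64 each), and for *GLUL*, with *TUBB3* (0.63), *PRKG1* and *TSPYL2* (0.60 each).

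Most member probes varied between pigs more than most of the array. Of the 41 probes, 37 had a within-group SD above the median of all probes tested (0.23) and 33 lay above the 75th percentile, with a median percentile of 82.7. *HSD11B1* lay between the 81.3rd and 98.7th percentile, *DUSP1* at the 92.4th and 93.4th, *KLF15* at the 91.4th and 92.1st, *FKBP5* between the 83.4th and 90th and *GLUL* between the 77.7th and 84.9th. *KLF9* ranged more widely, from the 15.6th to the 84.1st, and *NR3C1* lay lower, from the 28.9th to the 61.7th. The percentiles were not matched for brightness. Probes of 1 gene share their pigs, so these percentiles are not separate observations.

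Other genes that glucocorticoids are known to induce were taken from a list of 30, of which 25 had a kept probe. In HS, 8 of the 25 were called lower and 0 higher, beside 10.1% of symbols called lower, and the median difference was -0.13 (-0.02 over all probes). The list was chosen with earlier results of these data known, so this count is a description and no independent evidence. The 6 with the smallest p were *ZBTB16*, a transcription factor (-0.59, SE 0.14, adjusted p = 0.00408), *LPIN1*, a phosphatidate phosphatase (-0.49, SE 0.13, adjusted p = 0.00931), *CEBPB*, a transcription factor (-0.32, SE 0.09, adjusted p = 0.0111), *PDK4*, the kinase that closes pyruvate dehydrogenase (-1.92, SE 0.52, adjusted p = 0.0115), *ANGPTL4*, an inhibitor of lipoprotein lipase (-1.07, SE 0.32, adjusted p = 0.0206), and *FOXO1*, a transcription factor of fasting (-0.26, SE 0.08, adjusted p = 0.0261). *NFKBIA*, the inhibitor of NF-kappa-B, and *PER1*, a clock gene, were the other 2. *FOXO1*, *PDK4* and *ANGPTL4* are also known to answer to feeding and fatty acids. *SGK1* (0.17, adjusted p = 0.366), *DDIT4* (-0.17, adjusted p = 0.606) and the muscle ubiquitin ligases *TRIM63* (0.02, adjusted p = 0.927) and *FBXO32* (0.09, adjusted p = 0.773) did not pass. These 4 genes are named because they are widely used markers of the response, and were picked after their values were seen. Genes named below for a breed call were likewise picked by that call. Between the breeds 1 of the 25, *FBXO32*, was called higher in Creole (0.72, adjusted p = 0.0376) and 1, *ANGPTL4*, lower (-1.64, adjusted p = 0.0105), beside 3.75% of symbols called either way.

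Genes of the receptor's partners and of neighbouring pathways are read against 18.4% of symbols called with temperature (10.1% lower) and 3.75% called between the breeds. Of 16 measured genes of receptor, ligand supply and chaperones, 1 was called with temperature, the coactivator *NCOA2* (0.19 higher in HS, adjusted p = 0.0265), and 1 between breeds, *HSD11B2*, the enzyme that inactivates cortisol (-0.33 in Creole, adjusted p = 0.0449). The mineralocorticoid receptor *NR3C2* (-0.31, adjusted p = 0.0994) and *SERPINA6*, which encodes the cortisol-binding globulin (-0.31, adjusted p = 0.1), did not pass. Of 8 genes of glutamine and ammonia handling, 2 were called lower in HS, the aminotransferases *GOT1* (-0.55, adjusted p = 0.00421) and *GPT* (-0.43, adjusted p = 0.00577), and 0 between breeds. Of 9 genes of dual-specificity phosphatases and MAP kinases, *MAPK8* was called lower in HS (-0.15, adjusted p = 0.0492) and *MAPK14* higher in Creole (0.35, adjusted p = 0.00809). None of the 6 measured genes of the list for metallothionein and zinc handling was called for either. *MT1D*, *MT1E*, *MT1X*, *MT3* and *MT4* of that list had no kept probe, so the 6 are genes of zinc handling. Their smallest temperature p was that of *MTF1*, the zinc-sensing transcription factor (-0.10, adjusted p = 0.247).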

How the data were processed

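RNA of 35 pigs was hybridised to 1-colour porcine oligonucleotide arrays (Cy3). The authors deposited scanner files with the intensity of each spot, from Agilent Feature Extraction 10.10.1.1 per the submitters' processing notes, and a table of log2 values of 40649 probes that the authors had normalised and filtered, whose 35 columns each lay closest to their own array and which was used as an alternative. Following the study methods, the median pixel intensity was quantile-normalised without background subtraction and taken to log2. The 105 spots flagged as outliers were set missing after that step. No spot was saturated. Of 60305 non-control probes, 41517 were kept, those flagged as well above background in 75% or more of any group's arrays, and they carried 8993 gene symbols. A gene is shown by its brightest kept probe. The number of arrays limits the precision.

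limma 3.58.1 in R 4.3.3 fitted breed and temperature for the contrasts over all arrays and the 6 group means for the contrasts within breeds and the interaction. Intervals are 95% intervals without adjustment, and p was adjusted by the Benjamini-Hochberg method over all kept probes, with a threshold of 0.05. The study's random terms for pen, slaughter series, father and mother were left out because the labels do not give them. On simulated data for HS minus TN over 41517 probes, 95% of 200 probes changed by 1 on the log2 scale were recovered, with 5 false calls. The simulated arrays had independent noise, with no litter, pen or slaughter day effect. These figures therefore check the code and do not give the error rates of smaller differences in the real arrays. Correlations used deviations from the group means with 100000 two-sided permutations within groups, run in Python 3.11.15 with scipy 1.17.1.

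The member genes, the gene lists and the cell type markers were chosen with earlier results of these data known. Of each list, the genes with the smallest temperature p were named, at most 6. Some genes are not reported here. Alternatives were other scalings, the deposited table, filters, a slide block, array weights, covariates for array brightness and leukocyte markers, temperatures apart, 1 probe per symbol and each array left out.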

Additional observations from a re-analysis of the deposited data

Results flagged for a closer look

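In 5 of the 60 groups of values checked, a lone array stood far from the rest of its group by Dixon's test of the gap over the range, where chance gives about 3.0 (1 in 20). Large White HS replicate 5 was the highest of its group for *FKBP5* at 9.19, with a gap of 0.699 of the range. For *KLF15*, F1 TN replicate 2 was the lowest at 10.02 (0.644 of the range) and F1 HS replicate 4 the lowest at 10.35 (0.75 of the range). For *MT1A* probe O4231, Creole HS replicate 1 was the highest at 6.34 (0.650 of the range) and F1 TN replicate 2 the highest at 7.53 (0.734 of the range).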

How the results depend on the processing

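The temperature count of 12 member probes stayed between 10 and 12 in 12 other settings and with each array left out. It was 1 with 1 probe per symbol, a setting that leaves 1 probe per gene and so lowers the counts here by its design. In that setting *KLF9* was still 0.70 lower in HS (adjusted p = 0.000259). For Creole minus Large White the count of 3 was 0 with spike-in scaling or HS arrays alone, 1 with median scaling, TN arrays alone or 1 probe per symbol, 5 with array weights, 6 with the array brightness or the leukocyte mean, and 2 to 6 with an array left out (5 without Creole TN replicate 2 or Large White HS replicate 4, 6 without Large White TN replicate 3). Within Creole the count of 9 was 1 with spike-in scaling or 1 probe per symbol, 0 with either covariate, and 0 to 11 with an array left out. Within Large White the count of 0 was 1 at the 75th percentile, 2 with the slide block or array weights, and 0 to 6 with an array left out. Directions turned for small differences. HS minus TN of *NR3C1* was 0.035 (spike-in) and 0.016 (leukocyte mean), that of *FKBP5* 0.0084 (median scaling) and 0.086 (spike-in), that of *KLF15* 0.027 (spike-in), 0.14 (brightness) and 0.26 (leukocyte mean), and that of another *GLUL* probe 0.040. Creole minus Large White of *FKBP5* was -0.019 (median scaling), -0.047 (spike-in), -0.22 (TN alone), -0.053 to 0.086 with an array left out and -0.064, -0.051, -0.021 and -0.0016 on its other probes. That of *KLF9* was -0.13 to 0.0064 with an array left out and 0.035, 0.046, 0.049, 0.079, 0.081 and 0.083 on other probes, and that of *MT1A* was 0.46 on probe O4231, itself -0.025 in HS alone. With the brightness or leukocyte mean in the fit, Creole minus Large White was called for *KLF15* (0.57 and 0.49) and *DUSP1* (0.63 in both). The cause was not tested. A scan date block was not run, since each slide had its own scan time. Littermates could not be paired because the labels give no litter. The labels also give no replicate numbers, and those used here follow accession order. Probes near background, such as O4231, bound how small a change can be seen.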
